A study of Homo sapiens with 9 samples.

Results

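The U3 small nucleolar RNA (snoRNA) genes and the spliceosomal small nuclear RNA (snRNA) genes carried some of the densest RNA polymerase II (RNAPII) peaks in HEK293, a line from human embryonic kidney. The 10 members, SNORD3A, SNORD3B-1, RNU1-1, RNU4-1, RNU4-2, RNU5A-1, RNU5B-1, RNU11, RNU12 and RNU4ATAC, were taken from 64449 annotated genes. They were chosen by name, after their high tag counts in these same peak lists were known. Their level is therefore given as a description, with no test.

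RNAPII was measured by chromatin immunoprecipitation and sequencing. A peak list was deposited for each of 5 RNAPII libraries, out of 9 samples in the labels; the other samples are the IgG libraries used as background and were not analysed here. HEK293 cells infected with a lentivirus carried a control shRNA, the RECQL5 shRNA 5 (shRNA5) or the RECQL5 shRNA 7 (shRNA7). RECQL5 is a DNA helicase that binds RNAPII. HEK293 T-REx cells had been transfected with a plasmid carrying full-length RECQL5 under a doxycycline inducible promoter and received 0.0 (uninduced) or 1.0 ng/ml (induced) doxycycline. The plasmid was thus present in both of these libraries, and the labels do not say whether 1 clone was used. Each group is 1 library, so differences between lists have no replicate check. Intervals cover counting error only, and the effect of a hairpin cannot be told apart from that of its library. The number of peaks ran from 5287 with the control shRNA to 47060 without doxycycline, with 23698 upon shRNA5 and 32124 upon shRNA7. The methods of the study give larger approximate numbers for wild-type, shRNA5 and shRNA7 cells. The lists used here are thus not the same peak sets as described there. Total reads per library were not in the files. The methods of the study describe read numbers as similar among the samples compared within each arm, but give only a rough range per arm. Ratios are given unscaled and beside the same ratio over protein-coding genes. RECQL5 itself had no peak within 2 kb of its start with the control shRNA or upon shRNA5, and one of 75.2 tags per kb upon shRNA7. A hairpin acts on mRNA, so RNAPII at the RECQL5 start does not check the depletion.

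snRNA-type genes are short, lack introns and make RNAs without a poly(A) tail. Their promoters hold a proximal sequence element bound by the SNAPc complex and often an upstream octamer bound by the factor OCT1. A 3′ box just past the RNA directs cleavage of the transcript by the Integrator complex, and RNAPII is known to run on beyond it before it terminates. U3 guides cleavage of the ribosomal RNA precursor. U1 and U4 serve the major spliceosome, whereas U11, U12 and U4atac serve the minor spliceosome, which removes a rare class of introns. U5 serves both and is counted here with the major spliceosome.

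8 members were found by symbol in the GENCODE annotation on GRCh37. SNORD3A lies on chr17:19091329-19092027 and SNORD3B-1 on chr17:18965225-18965982, both on the plus strand. RNU1-1 lies on the minus strand of chr1:16840617-16840780. RNU4-1 and RNU4-2 occupy chr12:120730900-120731040 and chr12:120729566-120729706, both on the minus strand. RNU5A-1 lies on chr15:65588389-65588504, inside PARP16 but on the opposite strand, and RNU5B-1 on chr15:65597015-65597130, beyond the PARP16 start. RNU4ATAC lies on chr2:122288457-122288583, inside CLASP1 and opposite to it. The remaining 2 were placed by matching an annotated pseudogene to the interval between the neighbours that RefSeq gives. RNU11 was placed on chr1:28975112-28975245 between TAF12 and GMEB1 (85.7% of 133 bases of RNU11-6P). RNU12 was placed on chr22:43011250-43011399 between POLDIP3 and CYB5R3 (90.4% of 156 bases of RNU12-2P). These starts and ends carry the uncertainty of a pseudogene match.

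The promoter table from RefSeq matched 0 of the 10 members, so their sequences were read from the GRCh37 genome. The octamer, ATGCAAAT or ATTTGCAT, was searched from 250 bases before the start to 50 bases after it. It was present in 5 of the 10 members, compared with 1.77% of 35116 RefSeq promoters (GRCh38) of the same length, 300 bases. The octamer windows are shown, with the motif in capitals, to give its place in each promoter. Octamers are a known feature of this gene class, so finding them is not independent of choosing the genes by name.
RNU4-2 octamer, chr12:120729918-120729945, minus strand: cgtcacgttgATTTGCATaagattcccc
RNU5A-1 octamer, chr15:65588176-65588203, plus strand: ttcaggtctcATTTGCATacccataata
RNU5B-1 octamer, chr15:65596793-65596820, plus strand: tgatccgattATTTGCATacccataatg
RNU11 octamer, chr1:28974883-28974910, plus strand: ccctgagtatATTTGCATatcaactcac
RNU4ATAC octamer, chr2:122288218-122288245, plus strand: agaaaagcgtATGCAAATtttcgagcgg
In these 5 genes the octamer began 203 to 229 bases upstream of the start. The SNORD3A, SNORD3B-1, RNU1-1, RNU4-1 and RNU12 windows did not hold these letters.

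The 40 bases after each RNA were searched on the RNA strand for the letters AAANNNAGA, a short form of the 3′ box. They were found in 3 of the 10 members, compared with 15.6% of the 1914 annotated snRNA genes, which include many pseudogenes. The longer form, GTTT followed by 0 to 3 bases and AAANNNAGA, was found after RNU1-1 only among the members, and after 0.575% of the annotated snRNA genes. The flanks are shown because they are where transcription past the RNA begins. For all members but U3 their first base follows the annotated or matched gene end, from which the downstream reach of the peaks is measured. The U3 genes are annotated as 699 and 758 bp, although RefSeq gives the U3 RNA 217 bases, and the U3 flank was taken after the RNA. The capitals mark the box. SNORD3A and RNU5A-1 are included as members without these letters.
RNU1-1, chr1:16840577-16840616, minus strand: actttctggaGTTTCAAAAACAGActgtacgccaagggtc
RNU5B-1, chr15:65597131-65597170, plus strand: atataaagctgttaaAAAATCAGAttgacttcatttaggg
RNU12, chr22:43011400-43011439, plus strand: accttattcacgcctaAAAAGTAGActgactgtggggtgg
SNORD3A, chr17:19091546-19091585, plus strand: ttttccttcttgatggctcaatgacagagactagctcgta
RNU5A-1, chr15:65588505-65588544, plus strand: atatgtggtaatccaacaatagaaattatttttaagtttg

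Several members have near-identical copies, which matters because short reads from identical stretches of such copies cannot be placed with certainty. SNORD3A matched 3 other annotated RNAs at 95% of bases or more, SNORD3B-1 matched 3, and RNU1-1 matched 13. RNU4-1 and RNU4-2 differed at 4 of 141 bases, with the longest identical stretch at 50 bases. This pair is shown with the differing bases in capitals.
RNU4-1: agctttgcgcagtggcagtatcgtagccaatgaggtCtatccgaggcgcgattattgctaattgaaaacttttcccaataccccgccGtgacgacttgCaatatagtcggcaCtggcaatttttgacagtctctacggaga
RNU4-2: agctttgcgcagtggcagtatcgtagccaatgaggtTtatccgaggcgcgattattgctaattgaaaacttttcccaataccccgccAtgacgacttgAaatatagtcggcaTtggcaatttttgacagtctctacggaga
RNU5A-1, RNU5B-1, RNU11, RNU12 and RNU4ATAC had 0 such copies. The methods of the study name the best-alignment option of Bowtie and removal of blacklisted regions, and no filter on unique matches. Values of the U3, U1 and U4 genes are therefore uncertain in how reads split among copies. For RNU4-1 and RNU4-2 that split falls within 1 shared peak, described below.

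All 10 members had a peak within 2 kb in each of the 5 lists. Among protein-coding genes, the share with a peak within 2 kb of the start was 16.2% with the control shRNA, 42.5% upon shRNA5, 50.2% upon shRNA7, 54.5% in uninduced T-REx cells and 46.0% in induced ones. Among the other 3364 annotated snRNA and snoRNA genes the shares were 7.85%, 14.3%, 17.1%, 16.7% and 14.2% in the same order. RNU4-1 and RNU4-2 lay under a single peak in every list and were counted as 1 locus, so the 10 members gave 9 loci. The SNORD3A peak also covered SNORD3C and the SNORD3B-1 peak also covered SNORD3B-2, each an inverted copy of U3. Because of these near-identical copies, the 2 U3 loci cannot be treated as independent in counts over the 9 loci.

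Density is given as tags, the sequenced reads counted in a peak, per kb of peak length. The median over the 9 loci was 290.2 tags per kb with the control shRNA, 356 upon shRNA5, 430.0 upon shRNA7, 324 in uninduced T-REx cells and 268 in induced ones. Medians over all peaks of the same lists were 48.2, 46.0, 45.9, 22.3 and 32.5 tags per kb. At least 99.1% of the peaks of a list were less dense than each member locus in it. The members were also longer than most peaks, although they were not the longest. Median locus lengths were 3112, 3927, 4780, 3360 and 3067 bp in the same order of lists. Medians over all peaks were 1905, 1834, 2024, 622 and 689 bp. In the control list member lengths ran from 1761 to 4339 bp. At RNU5A-1 in that list 43.4% of all peaks were shorter, the lowest share of any member locus and list. The member loci held 0.969% of all tags in peaks with the control shRNA and 0.196% of the peak length. Upon shRNA7, when many more peaks were called, they held 0.279% of the tags and 0.0428% of the length.

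**Figure D1:**
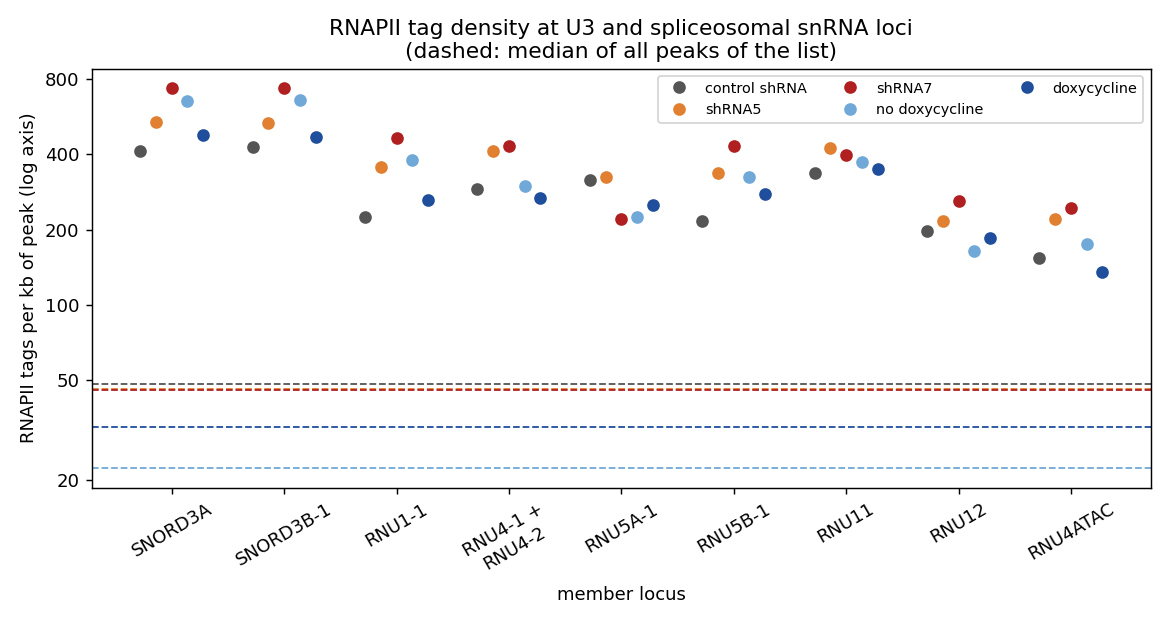
RNAPII tags per kb of peak (log axis) at each of the 9 member loci, 1 point per peak list, with the median of all peaks of each list as a dashed line in the same colour. Every point lies above all 5 dashed lines, from 136 tags per kb at RNU4ATAC with doxycycline to 737 at SNORD3B-1 upon shRNA7.

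Of the U3 genes, SNORD3A held 1705 tags with the control shRNA, 2483 upon shRNA5, 3307 upon shRNA7, 2831 in uninduced T-REx cells and 1793 in induced ones. Its densities in these lists were 412, 540, 736, 650 and 475 tags per kb. SNORD3B-1, almost identical in sequence, gave 1717, 2497, 3318, 2796 and 1731 tags. Its densities were 426, 531, 737, 656 and 468 tags per kb. The U3 loci were the densest members in every list, and no more than 2 peaks of any list were denser than either. U3 density was highest upon shRNA7 and lowest with the control shRNA, and it was lower with doxycycline than without.

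Among the major spliceosomal genes, RNU1-1, which encodes U1, the RNA that binds the 5′ splice site, held 974 tags with the control shRNA, 1626 upon shRNA5, 2258 upon shRNA7, 1270 in uninduced T-REx cells and 1017 in induced ones. Its densities were 224, 356, 462, 378 and 264 tags per kb. The U4 locus, whose RNA pairs with U6 until the spliceosome is activated, held 903, 1612, 2269, 1024 and 873 tags. At 290.2, 410.5, 430.5, 298 and 268 tags per kb, its doxycycline lists lay closer together than those of RNU1-1. The summit of the shared U4 peak lay 98 to 198 bp after the RNU4-2 start in every list and therefore 1432 to 1532 bp after the RNU4-1 start.

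U5 aligns the exons for ligation, and its genes gave different patterns. RNU5A-1 held 557 tags with the control shRNA, 927 upon shRNA5, 1521 upon shRNA7, 601 in uninduced T-REx cells and 515 in induced ones. RNU5B-1 held 692, 1277, 1758, 801 and 789 tags. In density RNU5A-1 went from 316 tags per kb with the control shRNA to 325 upon shRNA5 and 220.0 upon shRNA7, whereas RNU5B-1 went from 217 to 336 and 430.0. RNU5A-1 was the only member less dense upon shRNA7 than with the control shRNA. Its shRNA7 peak was 6913 bp long, against 1761 bp in the control, and it took in the start of PARP16. Without doxycycline the 601 tags came from a peak of 581 tags and a second, sparse one of 20 tags over 940 bp.

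Among the minor spliceosomal genes, RNU11 held 691 tags with the control shRNA, 1095 upon shRNA5, 1528 upon shRNA7, 787 in uninduced T-REx cells and 776 in induced ones. RNU12 held 563, 1019, 1588, 640 and 565 tags. RNU4ATAC, whose RNA is the U4 counterpart in the minor spliceosome, held 360, 718, 1162, 445 and 406 tags. In all 5 lists the RNU11 peak included the TAF12 start, 309 bp away, and the RNU12 peaks included the POLDIP3 start, 282 bp away. Tags from these divergent coding promoters cannot be told apart from those of the snRNA genes. The density of RNU11 was 337, 425, 396, 371 and 349 tags per kb, above the member median in every list except shRNA7. RNU4ATAC, whose nearest coding start was 118595 bp away, was the least dense in 2 lists, at 154 tags per kb with the control shRNA and 136 with doxycycline.

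Upon RECQL5 depletion, tags were more numerous at all 9 loci in both depleted libraries, and 9 of 9 loci followed the order control, shRNA5, shRNA7. The ratio of tags between shRNA5 and the control ran from 1.45 at SNORD3B-1 to 1.99 at RNU4ATAC (95% counting interval 1.75 to 2.27), with a median of 1.67. Between shRNA7 and the control it ran from 1.93 at SNORD3B-1 to 3.23 at RNU4ATAC (2.87 to 3.64), with a median of 2.51. The lists differed at least as much at coding genes. The median tag ratio of 3248 protein-coding genes with a peak in both lists was 2.14 for shRNA5 and that of 3062 genes was 3.79 for shRNA7. Divided by these medians, tags were lower than in the control at all 9 loci, with a median of 0.779 upon shRNA5 and 0.662 upon shRNA7. The direction of the tag ratios at the members thus depended on whether the lists were scaled to coding genes. Tags were at least 1.5-fold higher at 7 of the 9 loci upon shRNA5, against 84.7% of coding genes, and at all 9 upon shRNA7, against 98.3%.

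In tags per kb, the median ratio over the 9 loci was 1.31 upon shRNA5 and 1.58 upon shRNA7. The medians over coding genes were 1.33 and 1.54, which is 0.41 and 0.63 on the log2 scale. A density at least 1.5-fold higher was seen upon shRNA5 at 2 loci, RNU1-1 and RNU5B-1, against 21.1% of coding genes. It was seen upon shRNA7 at 5 loci, both U3 loci, RNU1-1, RNU5B-1 and RNU4ATAC, against 54.6% of coding genes. None of the 9 loci was 1.5-fold lower in either library, by counts of tags in 1 library each and with no test, against 0.0% and 0.098% of coding genes. The shares at the members were close to the background, and relative to the coding median 4 loci upon shRNA5 and 5 loci upon shRNA7 lay above 1. The 5 coding genes at least as dense as the lowest member locus in the control list were also chosen after seeing the data. Their median density ratios were 1.02 upon shRNA5 and 0.897 upon shRNA7. Of these genes, H1-4 and H2BC5 lie under the same control peak, and the CROCC and WDR74 peaks hold RNU1-4 and RNU2-2P. The 5 genes are therefore neither separate peaks nor all free of other snRNA genes. RNU1-1 had the highest density ratio in both, 1.59 (1.47 to 1.72) upon shRNA5 and 2.06 (1.91 to 2.22) upon shRNA7. RNU5A-1 had the lowest in both, 1.03 (0.92 to 1.14) and 0.70 (0.63 to 0.77). Both depleted libraries were compared with the same control library, so their ratios are not independent of each other.

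With doxycycline, which induces RECQL5, no locus had more tags than without it. These counts are unscaled and only a rough range of reads is known. A small difference in tags therefore cannot be told apart from a difference in reads. The tag ratio was 0.63 (0.60 to 0.67) at SNORD3A and 0.62 (0.58 to 0.66) at SNORD3B-1. At RNU1-1 it was 0.80 (0.74 to 0.87) and at the U4 locus 0.85 (0.78 to 0.93). RNU5B-1 and RNU11 stood at 0.99 each (both 0.89 to 1.09), an interval that includes 1. The median was 0.857, beside 0.985 over 9030 coding genes. In density the median was 0.853, and 6 of the 9 loci had intervals below 1 while none had an interval above 1. The coding median was 1.15 (0.21 on the log2 scale), and relative to it all 9 loci were lower, with a median of 0.739. Coding genes at least as dense as the lowest member locus without doxycycline were also examined, a choice made after seeing the data. Their median density ratio was 0.761 (7 genes), below that of the members. Among them RPL41, ESYT1 and ZC3H10 lie under the same peak, and the CROCC and WDR74 peaks hold RNU1-4 and RNU2-2P. These genes are therefore neither independent of each other nor all free of snRNA genes. Tags were at least 1.5-fold lower at 2 of the 9 loci, both of them U3 and not independent of each other, against 16.4% of coding genes. They were at least 1.5-fold higher at none, against 12.4%. In density no locus passed 1.5-fold in either direction, where 12.4% of coding genes were at least 1.5-fold higher and 0.963% lower.

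**Figure D2:**
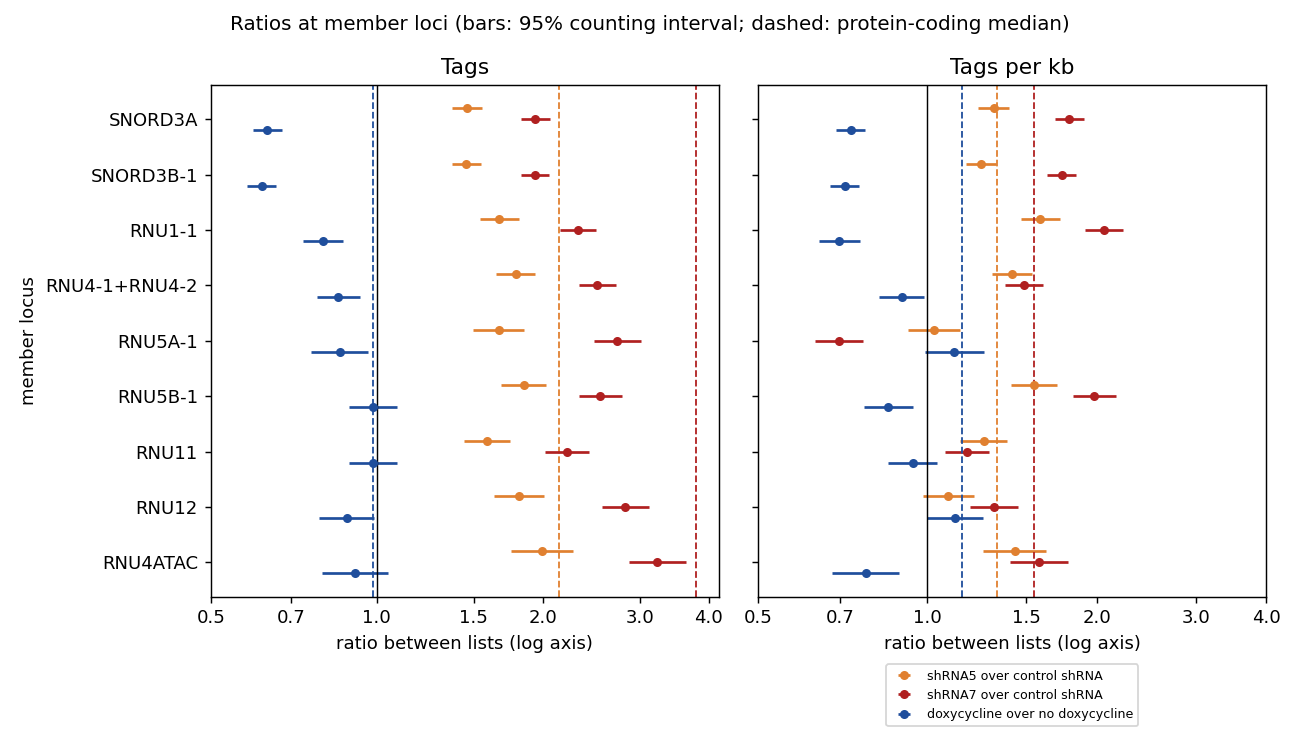
Ratio between peak lists of tags (left) and of tags per kb (right) at the 9 member loci, both on a log axis, with 95% counting intervals as bars and the median of protein-coding genes as a dashed line of the same colour. In tags all shRNA5 and shRNA7 points lie above 1 and below their dashed lines, and the SNORD3A and SNORD3B-1 points with doxycycline lie lowest, at 0.63 and 0.62.

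Shares of tags within a list need no scaling between libraries, although they move with the extent of the called peaks. From the control to shRNA7 the peak length ratio was 1.08 at SNORD3A and 1.12 at SNORD3B-1, beside 2.15 at RNU12, 2.05 at RNU4ATAC and 3.93 at RNU5A-1. The 2 U3 loci held 41.9% of all tags at the 9 loci with the control shRNA (exact Clopper-Pearson 95% interval 40.9% to 43.0%), 37.6% upon shRNA5 (36.7% to 38.4%) and 35.4% upon shRNA7 (34.7% to 36.1%). They held 50.3% without doxycycline (49.3% to 51.2%) and 41.6% with it (40.6% to 42.7%). The share of U3 was therefore lower in both depleted libraries than in their control, and also lower with induced RECQL5 than without. The 4 major spliceosomal loci held 38.3% with the control shRNA, 41.1% upon shRNA5 and 41.7% upon shRNA7. They held 33.0% without doxycycline and 37.7% with it. The 3 minor spliceosomal loci held 19.8%, 21.4% and 22.9% in the shRNA arm, and 16.7% without doxycycline and 20.6% with it. These shares are parts of the same total, so the other classes together must hold more where U3 holds less. Within each arm, the intervals for U3 did not overlap between lists. Whether the spread between repeat libraries is larger than these differences was not tested. The part of read placement in these shares was not tested. SNORD3A, SNORD3B-1, RNU1-1 and the U4 genes have near-identical copies, and the minor spliceosomal genes have 0. The annotated copies of U3 and U4 lie under the U3 and U4 peaks themselves, so reads split among them stay within the same class. Those of RNU1-1 lie outside the member peaks.

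**Figure D3:**
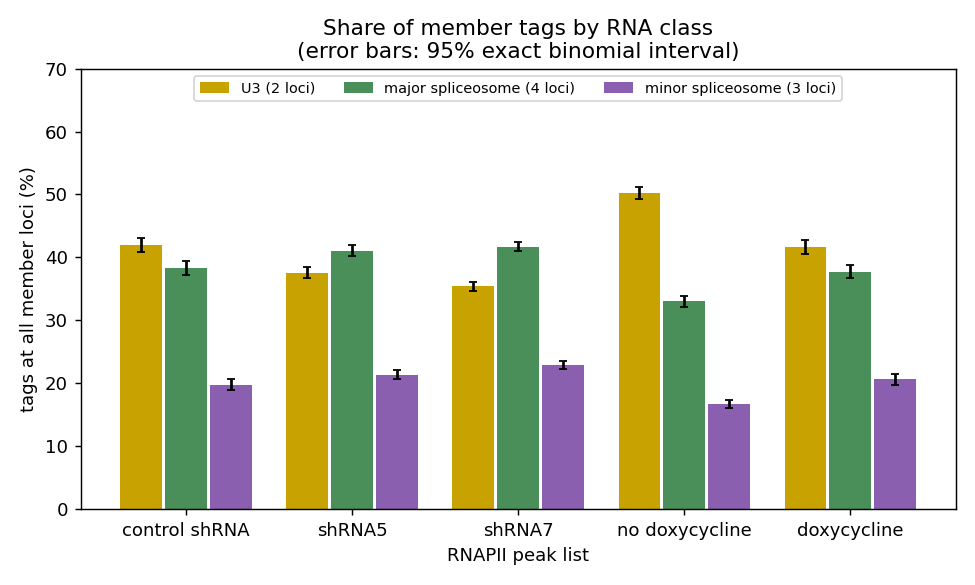
Share of the tags at all 9 member loci (%) that fell on the U3, major spliceosomal and minor spliceosomal loci in each peak list, with exact 95% binomial intervals as error bars. The U3 bar is highest without doxycycline, at 50.3%, and lowest upon shRNA7, at 35.4%.

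Downstream reach is the distance from the annotated end of the gene to the far end of its peaks, in the direction of transcription. Its median over the 10 members was 1518 bp with the control shRNA, 2490.5 bp upon shRNA5, 2869.5 bp upon shRNA7, 1853.5 bp in uninduced T-REx cells and 1856.5 bp in induced ones. The peaks were lopsided. Median upstream reach, from the start, was 1145 bp with the control shRNA and 857.5 to 1321.5 bp in the other lists, and the downstream side was the longer one in 8, 9, 10, 8 and 8 of the 10 members. The exceptions were RNU4-2, whose upstream side holds RNU4-1, and RNU12, whose upstream side holds the POLDIP3 start. Summits sat early, within 250 bp after the start in 8 or 9 of the 10 members in each list, so most of the downstream reach lay past the summit.

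Upon depletion the reach was longer in 10 of 10 members in both libraries, and in 8 of 10 it followed the order control, shRNA5, shRNA7. The exceptions were SNORD3A, with 2274, 2677 and 2530 bp, and SNORD3B-1, with 2152, 2610 and 2533 bp. RNU12 reached 1100 bp with the control shRNA, 3009 bp upon shRNA5 and 4262 bp upon shRNA7. RNU5A-1 reached 1031, 1845 and 5019 bp, the farthest of any member, and the shRNA7 reach runs across the PARP16 start. RNU4ATAC reached 1313, 2178 and 3033 bp, RNU11 1114, 1530 and 2524 bp, and RNU5B-1 1723, 2371 and 2594 bp. RNU1-1 had the longest control reach, 2982 bp, and the smallest change upon shRNA5, 243 bp, with 3225 bp upon shRNA5 and 3455 bp upon shRNA7. RNU4-2 reached 1020, 1576 and 2706 bp. The reach of RNU4-1, 2354, 2910 and 4040 bp, runs across RNU4-2, which starts 1194 bp past the end of RNU4-1. U3 reach likewise takes in the inverted copy, whose start lies 1531 bp past SNORD3A and 1467 bp past SNORD3B-1.

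The median lengthening was 556 bp downstream and 86.5 bp upstream upon shRNA5, and 1548 bp downstream and 249 bp upstream upon shRNA7. The downstream change exceeded the upstream change in 10 of 10 members in both libraries. Coding genes, measured from their start, also had longer peaks. Their medians were 517 bp downstream and 250 bp upstream upon shRNA5, and 1557 and 630.5 bp upon shRNA7. The share reaching farther downstream was 89.6% upon shRNA5 and 95.4% upon shRNA7, close to the 10 of 10 of the members. The share whose downstream change was the larger one was 59.8% and 60.6%. Members sharing a peak are not independent here, and a peak list with more tags can also give longer peaks at an unchanged profile, which the peak lists alone cannot tell apart.

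With doxycycline 4 of 10 members reached farther downstream, against 37.5% of coding genes, and in 5 of 10 the downstream change was the larger one, against 48.9%. Changes ran from -906 bp at RNU5A-1, where the second sparse peak was not called with doxycycline, to 558 bp at RNU1-1, with a median of -134 bp. No common direction was seen.

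**Figure D4:**
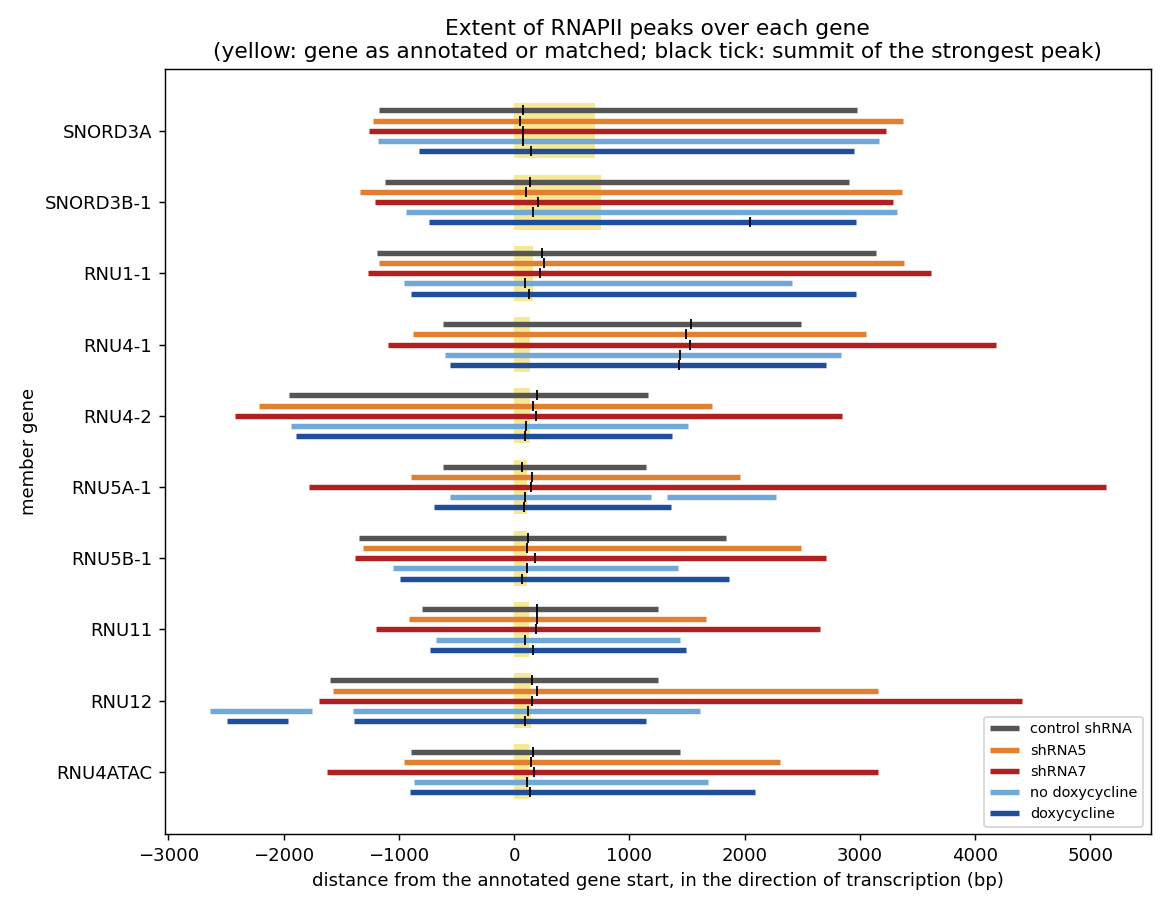
Extent of the RNAPII peaks over each of the 10 members, drawn as distance from the gene start in the direction of transcription (bp), 1 bar per peak list, with the gene in yellow and the summit of the strongest peak as a black tick. The shRNA7 bars of RNU5A-1 and RNU12 reach farthest past the gene end, 5019 and 4262 bp, and that of RNU5A-1 takes in the PARP16 start. RNU4-1 and RNU4-2 show the same peak from their own starts.

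Other snRNA-type genes transcribed by RNAPII were taken from a list of 16 names, of which 13 were in the annotation. All 13 had a peak in all 5 lists, 2 of them under a member's peak. The densest in each list was SNORD3B-2 or SNORD3C, which share the U3 peaks described above. For the 11 with a peak of their own, the median density ratio was 1.33 upon shRNA5, 1.59 upon shRNA7 and 0.907 with doxycycline, beside 1.31, 1.58 and 0.853 at the members. Of these 11, RNU1-2, RNU1-3, RNU1-4 and RNVU1-18 match RNU1-1 at every base of its RNA. Reads may be shared with that member, so the 11 are not independent of the members or of each other. A density at least 1.5-fold higher was seen at 4 of 11 upon shRNA5 and at 7 of 11 upon shRNA7, against 21.1% and 54.6% of coding genes. With doxycycline 0 of 11 were higher and 1 was lower, RNU1-3, named after its value was seen, against 12.4% and 0.963%.

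The U6 and 7SK type genes have a similar promoter but are transcribed by RNA polymerase III. Of 9 names 8 were annotated, as 9 entries, since RN7SK is entered more than once under the same peak. Their densest gene was RNU6-1 in the shRNA arm, at 64.3 tags per kb with the control shRNA, 94.7 upon shRNA5 and 134 upon shRNA7. It was RN7SK in the doxycycline arm, at 55.0 tags per kb without doxycycline and 54.1 with it. These values are below the lowest member locus of the same list. RNU6-2 and RMRP also had a peak in every list, at 42.9 and 38.0 tags per kb with the control shRNA.

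Among 23 annotated genes of the snRNA transcription machinery, 8 had a peak within 2 kb of the start with the control shRNA, 18 upon shRNA5, 20 upon shRNA7, 20 in uninduced T-REx cells and 19 in induced ones. The densest was INTS2, an Integrator subunit, at 72.4 tags per kb with the control shRNA. SNAPC5, a SNAPc subunit, was the densest upon shRNA5 at 113, upon shRNA7 at 137 and with doxycycline at 97.8 tags per kb. INTS13 was the densest without doxycycline, at 75.6 tags per kb. Density was at least 1.5-fold higher at 2 of 8 upon shRNA5, 5 of 8 upon shRNA7 and 3 of 19 with doxycycline, beside 21.1%, 54.6% and 12.4% of coding genes, and none was 1.5-fold lower, all without a test.

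Few protein-coding starts were as dense as the lowest member locus of their list. With the control shRNA 5 of 3272 coding genes with a peak were, 2 of them under a peak that held another snRNA gene. The counts were 6 of 8559 upon shRNA5 and 48 of 10114 upon shRNA7, with an snRNA or snoRNA gene under the peak in 3 and 7 of them. They were 7 of 10992 without doxycycline and 36 of 9275 with it, with such a gene in 2 and 9 of them. Several of these genes lie under a shared peak, so the counts are of genes and not of peaks. Of 3005 coding genes with a peak in all 5 lists, the 3 nearest to the median member profile, by Euclidean distance of log2 tags per kb over the 5 lists, were CROCC at 0.38, EGR1 at 1.53 and WDR74 at 1.56. The CROCC peak held RNU1-4 and the WDR74 peak held RNU2-2P. EGR1, an immediate early transcription factor gene with no annotated snRNA gene under its peak, had 256, 246, 275, 152 and 172 tags per kb in the 3 libraries of the shRNA arm (control first) and then the 2 of the doxycycline arm.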

How the data were processed

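RNAPII and IgG libraries were processed by the authors, who called peaks for each RNAPII library separately. The submitters' processing notes name CASAVA 1.8, Bowtie 0.12.7, MACS 1.4.2 and the build hg19 (GRCh37). The deposited tags are the authors' read count in each peak, without scaling. The deposited score is the −log10 p-value times 10, the fold enrichment is the authors' ratio over local background, and the false discovery rate is deposited in percent. Score, fold and percent were used only to filter peaks in alternatives.

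Members, lists and windows were chosen with earlier results of these data known. Peaks overlapping a member widened by 2 kb on each side by at least 1 bp were assigned to it, in Python 3.11.15 with pandas 2.3.3, SciPy 1.17.1 and edlib. Tags were summed and divided by the summed peak length. Ratios carry 95% exact conditional binomial intervals for 2 counts. Protein-coding genes with a peak within 2 kb of the start, and no peak shared with a member, served as background. The ratio and reach code was tested on simulated data. No test between lists was possible with 1 library per group. Named genes were the 10 members, the densest gene of each fixed list in each peak list, list genes with a peak in all 5 lists where at most 5, and the 3 coding genes nearest to the member profile. PARP16, TAF12, POLDIP3, the other neighbours and the coding genes sharing a peak were named after their values were seen. RNU2-1, RNU2-2, SNORD3D and RPPH1 were not analysed here. The RNA sequences of the U5 genes are not reported here.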

Additional observations from a re-analysis of the deposited data

How the results depend on the processing

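The number of members with a peak, the median density ratio and the median downstream reach were recomputed with a score of at least 100, an FDR of at most 5%, a fold enrichment of at least 10, genes not widened, and peaks under 1 kb apart merged. The last 2 quantities were also recomputed without loci having near-identical copies. Only the 8 members found by symbol, and U3 genes ended at their RefSeq length, were alternatives chosen after seeing the data. Medians were called moved when they left the order-statistic interval of the reported median. Of 102 alternatives 100 stayed within it or, for counts, within 1.5-fold. These intervals are wide. With genes not widened, the median reach was 1507 bp without doxycycline and 1856 bp with it. In that setting the median density ratio with doxycycline was 0.777. The filters on score, FDR and fold enrichment left every value unchanged. Among the strongest peaks of the members the lowest score was 895.57, the lowest fold 37.87 and the highest FDR 3.85%. Those filters could therefore not remove a member, and their unchanged values do not show robustness. Dividing the density ratios by the coding median gave 0.985 upon shRNA5, below 1 where the unscaled median was 1.31, and 1.02 upon shRNA7, and the same scaling lowered the doxycycline median to 0.739. The unscaled values rest on the similar read numbers that the methods give as a rough range within each arm, and the files hold no totals to check them. With a single library in each group, no replicate could be left out. No paired analysis was possible because the values come from no test and replicate numbers pair nothing.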
